A study of Mus musculus with 12 samples.

Results

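H3K4me3 at the replication-dependent histone genes of mouse chromosome 13 was followed here through 2 mm9 windows set for the Hist1 clusters. Window 1 spans chr13:21700000-22150000 and window 2 spans chr13:23550000-23880000. Gene positions in mm9 were not used, so it was not checked that the windows hold every gene of the clusters. A peak belonged to a window if it overlapped it by at least 1 bp. When the peak lists of all 8 libraries were merged wherever peaks overlapped or touched, 68 of 24352 regions fell in the windows, 38 in window 1 and 30 in window 2. The windows held between 44 and 66 of the 11111 to 17658 peaks of a library.

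H3K4me3, a histone mark of active and poised promoters, was profiled by chromatin immunoprecipitation sequencing in the small-intestinal epithelium of mice of mixed C57BL/6 CD1 background, with 2 libraries for each of 4 groups and 1 input library per group. The E12.5 and E14.5 groups were embryonic epithelium sorted as EpCAM+ CD31- CD45- cells. The ISC group was intestinal stem cells sorted for high Lgr5-EGFP from males aged 2 months (P60) carrying the Lgr5EGFP-Cre-ERT allele, in which the Lgr5 promoter drives the reporter, and the enterocytes were cells of villus preparations from the same kind of males, sorted as EpCAM+ CD31- CD45-. The labels call the libraries of a group biological duplicates but do not say how many animals or embryos a library pooled, so that the spread between them may be partly technical, and the enterocyte gate used no marker that would set enterocytes apart from other villus epithelial cells. The markers of each cell type could not be checked, because no gene annotation of the build mm9 was used.

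Replication-dependent histone genes encode the H1, H2A, H2B, H3 and H4 proteins that package newly copied DNA. They are transcribed mainly in S phase in a nuclear body formed at the clusters, and their transcripts end in a stem-loop instead of a poly(A) tail. Many exist in near-identical copies, and a pair of them is often transcribed outward from a shared promoter. Embryonic intestinal epithelium and crypt stem cells divide, whereas enterocytes of the villus have left the cell cycle. E12.5, E14.5 and ISC are called the cycling groups below on this background alone, since the data hold no measure of cell division.

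The clusters are dense in genes. In the RefSeq gene table, which is of the build GRCm38.p6, chromosome 13 holds 56 Hist1 genes, of which 6 encode H1, 15 H2A, 15 H2B, 9 H3 and 11 H4, with 2 pseudogenes among them. All but 1 lie in 3 runs of 19, 5 and 31 genes in that table's order. From the first to the last gene of the first 2 runs, 31 transfer RNA genes lie in between. The first and second run are set apart by 39 other genes, 3 of them protein-coding. Which regions of window 1 fall in that gap was not checked. Hfe, an iron regulator, Trim38 and the transporter genes Slc17a1, Slc17a2, Slc17a3 and Slc17a4 lie within the third run. Because the peaks are on mm9, no peak was assigned to a gene, and a region of the windows need not be a histone promoter. Where a region is called a histone region below, it is only a region of these windows.

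A promoter of each histone type is shown for the sequence elements that these genes share. For each type the first gene in the table's order is given, as the 100 bases before the transcription start, 5′ to 3′ on the gene's strand, from RefSeq GRCm38.p6. Capitals mark CCAAT or TATAAA on either strand, so that CCAAT on the opposite strand reads ATTGG.
H2bc13, minus strand: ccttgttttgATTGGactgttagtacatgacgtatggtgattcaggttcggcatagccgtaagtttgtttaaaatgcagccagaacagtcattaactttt
H2ac13, plus strand: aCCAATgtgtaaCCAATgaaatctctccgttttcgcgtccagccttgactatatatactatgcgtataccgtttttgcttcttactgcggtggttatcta
H3c10, plus strand: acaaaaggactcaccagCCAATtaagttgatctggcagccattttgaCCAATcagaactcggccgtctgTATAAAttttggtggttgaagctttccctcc
H4c11, plus strand: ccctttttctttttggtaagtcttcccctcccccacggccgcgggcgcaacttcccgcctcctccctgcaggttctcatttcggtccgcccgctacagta
H1f5, minus strand: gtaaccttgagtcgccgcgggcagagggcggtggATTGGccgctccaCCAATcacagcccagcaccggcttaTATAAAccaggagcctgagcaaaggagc

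The H3c10 and H1f5 promoters carried 2 CCAAT matches each and a TATAAA starting 31 and 28 bases before the start site. H2bc13 had 1 CCAAT match and H2ac13 had 2, and H4c11 had neither motif in this stretch. Over the 250 bases before the start, a CCAAT on either strand was found in 43 of the 51 Hist1 promoters in the table (84.3%) and in 34.5% of all 27025 promoters. All 6 H1, 13 H2A, 14 H2B and 7 H3 promoters held it, against 3 of 11 H4 promoters. TATAAA on either strand was found in 51.0% of the Hist1 promoters and 12.97% of all promoters, and CGCG in 54.9% and 34.0%. The ratio of observed to expected CpG had a median of 0.752 in the Hist1 promoters and 0.378 in all of them. These are matches of letters, not binding sites.

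Peaks covered more of the clusters at E14.5 than in any other group. The peaks of the windows numbered 47 and 53 for E12.5, 62 and 66 for E14.5, 48 and 54 for ISC, and 44 and 53 for enterocytes. They covered 39276 and 46407 bp for E12.5, 104745 and 100191 bp for E14.5, 57861 and 75700 bp for ISC, and 48353 and 58978 bp for enterocytes. The group means were 42842 ± 5042, 102468 ± 3220, 66781 ± 12614 and 53666 ± 7513 bp (SD, n = 2 each). Enterocytes lay below E14.5, above E12.5 and overlapped ISC. They had 0.759 times the covered length of the mean of the 3 cycling groups, and 2 of the 6 cycling libraries were lower than both enterocyte libraries. Covered length sums over many regions, so no test is given.

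**Figure D1:**
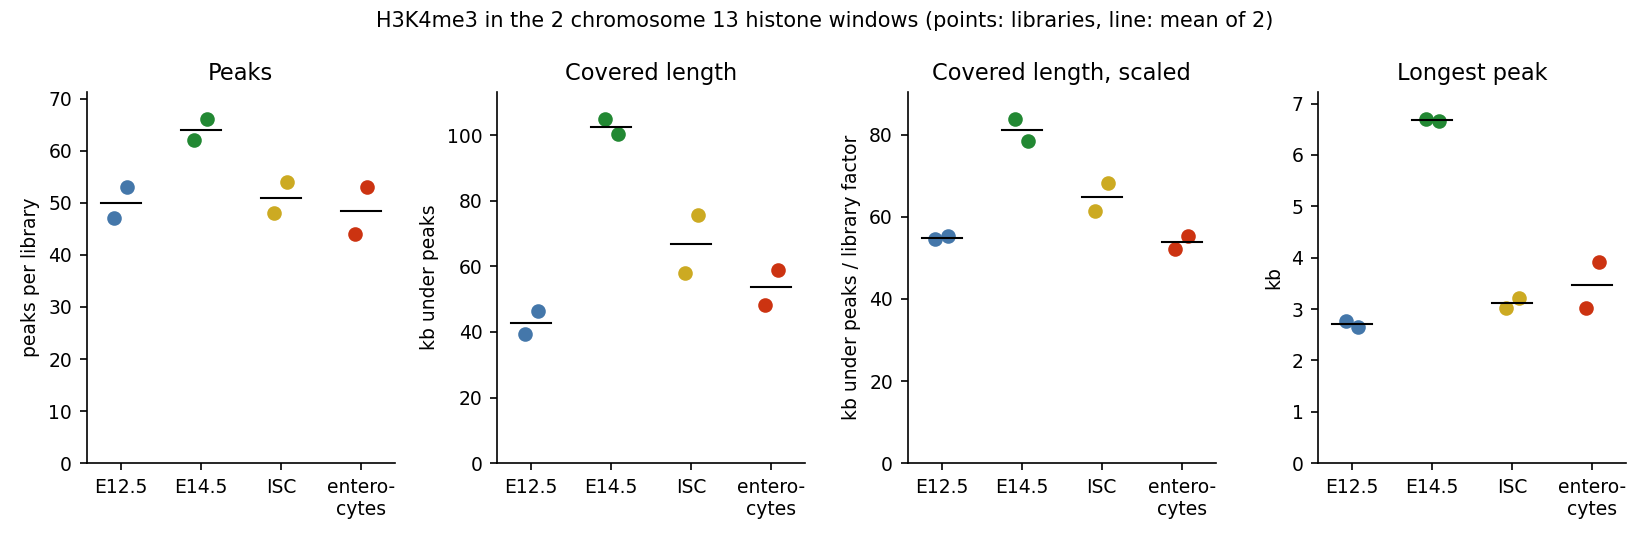
H3K4me3 in the histone windows by group (x axis), with each library as a point and the mean of 2 as a line: number of peaks, covered length in kb, covered length in kb after division by the library's factor, and longest peak in kb. Both E14.5 libraries are the highest in every panel, and the enterocyte libraries (48353 and 58978 bp before scaling) overlap the ISC libraries in covered length only before scaling.

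Lists differed in length over the whole genome, and the windows moved with them. Covered bp over the entire list ran from 11528423 at E12.5 replicate 1 to 24275691 at E14.5 replicate 2. Sequencing was shallowest for an enterocyte library (replicate 1, 12821255 tags) and deepest for an E14.5 library (replicate 1, 43259380 tags). The factor that equalized the median length over regions called in all 8 libraries ran from 0.72 at E12.5 replicate 1 to 1.28 at E14.5 replicate 2. After division by it, the windows held 54577 and 55274 bp for E12.5, 83658 and 78418 bp for E14.5, 61425 and 68097 bp for ISC, and 52183 and 55311 bp for enterocytes. On this scale the enterocyte libraries overlapped E12.5 and lay below both ISC and both E14.5 libraries, at 0.803 times the cycling mean.

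As a share of all bp under a library's peaks, the windows held 0.341% and 0.324% for E12.5, 0.453% and 0.413% for E14.5, 0.368% and 0.375% for ISC, and 0.311% and 0.282% for enterocytes. Both enterocyte libraries were below all 6 cycling libraries by this measure. When each list was held to its 11111 strongest peaks by −log10 q, the mean covered length was 46735 bp for enterocytes and 49678 bp in the cycling groups, a difference of -2943 bp in place of -17031 bp. The number of peaks was then 2.17 higher in enterocytes, against 6.5 lower with full lists. The E14.5 libraries then held 59225 and 58908 bp, only just above the 58827 bp of ISC replicate 2. The size of both differences therefore depended on how the lists were made comparable.

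The 2 windows differed. In window 1, peaks covered 21021 and 23869 bp for E12.5, 53749 and 49781 bp for E14.5, 24783 and 36867 bp for ISC, and 18027 and 23154 bp for enterocytes. After scaling, these were 29210 and 28430, 42928 and 38963, 26310 and 33164, and 19455 and 21714 bp. Both enterocyte libraries lay below all 6 cycling libraries on the scaled length, at 0.621 times the cycling mean, while on the unscaled length enterocyte replicate 2 was above E12.5 replicate 1. With lists of equal number the mean was 16356 bp for enterocytes and 25495 bp in the cycling groups, and enterocyte replicate 1, at 16935 bp, was above ISC replicate 1, at 15864 bp.

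Window 2 showed no such deficit. Its scaled covered length was 25367 and 26844 bp for E12.5, 40730 and 39455 bp for E14.5, 35116 and 34933 bp for ISC, and 32728 and 33597 bp for enterocytes. Enterocytes were thus above both E12.5 libraries and below ISC and E14.5, at 0.983 times the cycling mean. With lists of equal number the enterocyte mean, 30379 bp, was 6197 bp above the cycling mean, and both E14.5 libraries, with 24592 and 25250 bp, were below all 4 adult libraries. Without enterocyte replicate 1 the unscaled difference was 139 bp, against -2610 bp with both. The difference between the windows was described after the values were seen and was not tested.

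The stretch between the windows gives the same measure outside them. It held 22 merged regions, and peaks covered 0.935% and 0.950% of it at E12.5, 1.99% in each E14.5 library, 0.729% and 0.955% for ISC, and 0.616% and 0.694% for enterocytes. The coverage of window 1 was 4.67% and 5.30%, 11.9% and 11.1%, 5.51% and 8.19%, and 4.01% and 5.15% in the same order. By this unscaled measure both enterocyte libraries were below all 6 cycling libraries in the stretch in between, where the gene table has 75 vomeronasal Vmn1r genes and 46 transfer RNA genes. In window 1 they were not, since enterocyte replicate 2 (5.15%) was above E12.5 replicate 1 (4.67%). The enterocyte mean was 0.520 times the cycling mean in the stretch in between and 0.588 times in window 1. A lower enterocyte coverage was thus not particular to window 1.

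Of the 68 regions, 31 were called in all 8 libraries (45.6%, against 36.6% overall), and 5 were called in 1 library (7.35%, against 27.4%). E14.5 libraries had 62 and 63 of the regions, and the other 6 libraries between 41 and 51. A region missing from a list was not called by the authors' peak caller at that depth and is not shown to lack the mark. A peak in both E14.5 libraries and no other was found for 8 regions (5.29% of all regions have this pattern). Another 3 were called in all 4 embryonic and no adult library (1.5%). Both of these sets are among the 17 called in both E14.5 and neither enterocyte library (13.1%). In both ISC and neither enterocyte library, 3 were called (4.41%, against 2.24% of all regions), and all but 1 of them are among the 17 as well. The map of covered length by region shows the E14.5 columns filled where most others are empty in the middle of window 1.

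**Figure D2:**
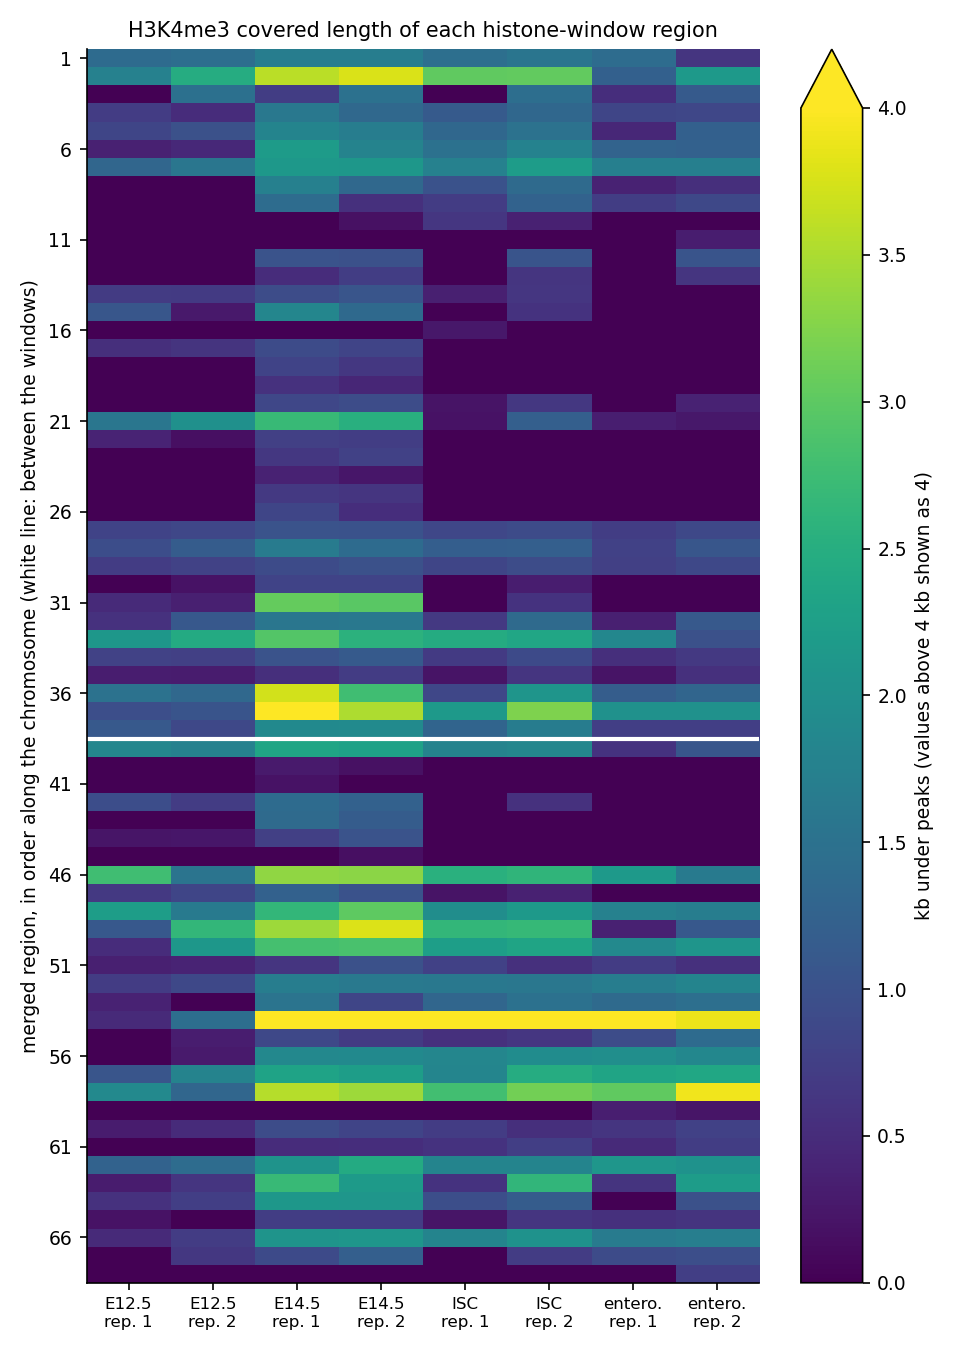
Covered length in kb (colour, capped at 4 kb) of the 68 merged regions in order along the chromosome (rows, window 1 above the white line) in the 8 libraries (columns). Rows empty outside E14.5 cluster in the middle of window 1, and 31 rows are filled in every library.

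Of the 8 regions called only at E14.5, 6 were in window 1, within 30767 bp of each other. From the start of the first to the end of the last, 9 merged regions were found. The E14.5 libraries had all 9, with 8205 and 7401 bp covered, which the choice of stretch fixes in part. E12.5 had 2 of them with 1977 and 2172 bp, ISC 2 with 413 and 1860 bp, and enterocytes 1 and 2 with 333 and 631 bp. The largest, chr13:22009003-22011781, was called everywhere and covered 1571 and 2012 bp for E12.5, 2692 and 2522 bp for E14.5, 197 and 1215 bp for ISC, and 333 and 250 bp for enterocytes. Enterocytes were below both embryonic groups there and overlapped ISC. By limma it was shorter in enterocytes than at E12.5, with a log2 change of -2.34 ± 0.52 (SE, adjusted p = 0.0273, n = 2 each). It was named after its values were seen, and the call was lost without any one E12.5 or enterocyte library (adjusted p up to 0.0984) and with lists of equal number (0.063).

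**Figure D3:**
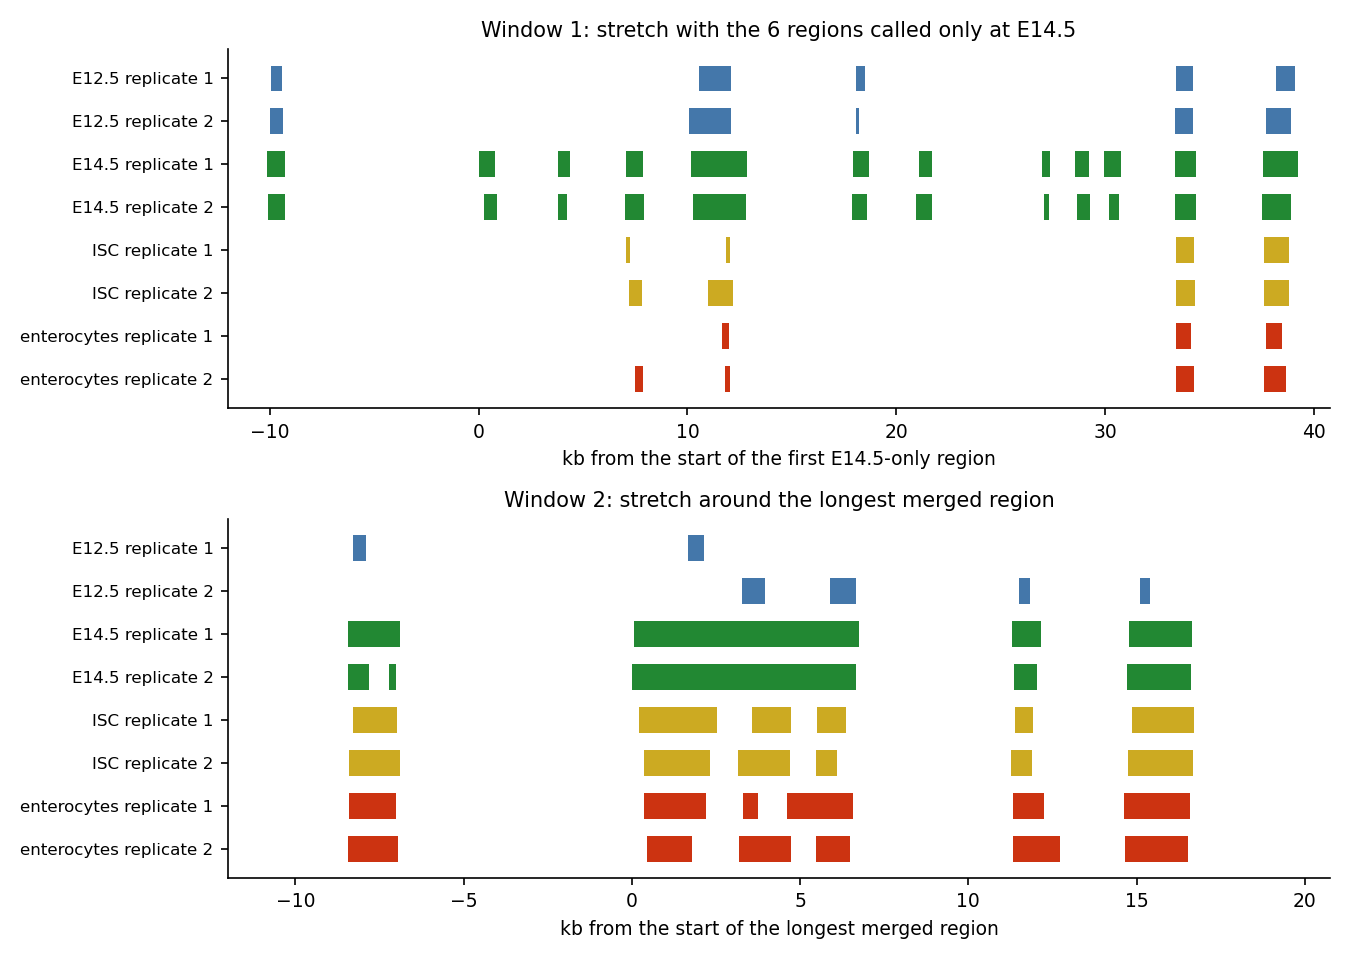
Peaks (bars) of the 8 libraries (rows) by distance in kb, over the window 1 stretch that holds 6 regions called only at E14.5 and over the surroundings of the longest merged region in window 2. In the upper map the E14.5 rows have peaks where the others are empty, and in the lower map 1 bar at E14.5 stands where ISC and enterocytes have 3 shorter bars each.

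Long peaks in the windows were found mainly at E14.5. The longest peak of the windows was 2774 and 2655 bp for E12.5, 6689 and 6654 bp for E14.5, 3025 and 3221 bp for ISC, and 3026 and 3918 bp for enterocytes. Peaks of at least 3000 bp numbered 0 and 0, 8 and 6, 1 and 3, and 1 and 1 in the same order, and held 30.2% and 23.9% of the covered length at E14.5, 5.23% and 12.4% for ISC, and 6.26% and 6.64% for enterocytes. Only the E14.5 libraries had a peak of at least 5000 bp, 1 each, and no library had one of 10000 bp. In the full lists, 5.68% and 5.48% of peaks reached 3000 bp for E14.5, and 5.06% and 5.09% did in enterocytes, so that the enterocyte lists were not short of long peaks in general. Of the peaks in the windows, 13 and 10 were among the longest 10% of their own list at E14.5, 7 and 8 for ISC, 3 and 5 for E12.5, and 1 and 1 for enterocytes.

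The block of at least 5000 bp was the same region in both E14.5 libraries, chr13:23662089-23668830, the longest by mean of all 68. It was 1 peak in each E14.5 library, of 6689 and 6654 bp. ISC had 3 separate peaks there, together 4318 and 4152 bp, and enterocytes also 3, with 4242 and 3879 bp. At E12.5 it had 1 and 2 short peaks, together 474 and 1451 bp. The region was longer in enterocytes than at E12.5 by a log2 change of 1.73 ± 0.38 (limma adjusted p = 0.0254) and longer at E14.5 than at E12.5 by 2.09 ± 0.38 (adjusted p = 0.0168). Against ISC the enterocyte change was -0.02 ± 0.38 (adjusted p = 1). The first call was lost with lists of equal number (0.0808), without ISC replicate 1 or either enterocyte library (adjusted p up to 0.091) and the second without either E14.5 library (up to 0.197). With lists of equal number the E14.5 change turned to -2.29 (adjusted p = 0.111). Both E14.5 peaks stood at the 99.8 percentile of length in their own list.

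Among the 68 regions, 10 held 2 or more peaks of at least 1 library (2.83% of all regions do). In 3 of them both E14.5 libraries had 1 peak where both E12.5 libraries had 2 or more (0.205% of all regions), and in these 3 the ISC and enterocyte libraries had 1 peak as well, so that E12.5 stood apart. The block just described was the 1 region where both E14.5 libraries had 1 peak and both enterocyte libraries 2 or more (0.111%). At chr13:22131913-22136200, E14.5 replicate 1 and ISC replicate 2 had 1 peak, of 4288 and 3221 bp, and the other libraries had 2 or, in E12.5 replicate 2, 3. When peaks of a library were joined over gaps of at most 1000 bp, blocks of at least 5000 bp numbered 2 in each E14.5 library, 1 in ISC replicate 2 and 0 in the others. With lists of equal number, neither E14.5 library kept its block, and the longest peaks there were 3723 and 3788 bp.

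Each region was then compared between groups by limma on log2(scaled covered bp + 200), fitted over all 17679 regions called in at least 2 libraries, with Benjamini-Hochberg adjustment over all of them. Of the 68 regions, 63 passed that filter, 36 in window 1 and 27 in window 2. Against the mean of the 3 cycling groups, 19 were shorter in enterocytes (15.9% of all tested regions were) and 3 were longer (12.1%), a share of 30.2% shorter among the 63. The median log2 change was -0.37 over them and -0.11 over all regions. In window 1, 13 were shorter and none longer (3 of 27 were longer in window 2, beside 6 shorter), with medians of -0.55 and 0.18. Without E14.5 replicate 1 or replicate 2, 5 were shorter, without enterocyte replicate 1, 10, and with lists of equal number, 8 were shorter and 9 longer. The shares over all regions moved as well, to 5.44% and 5.49% shorter without E14.5 replicate 1 or 2 (55 histone regions tested), 7.47% without enterocyte replicate 1 (62 tested), and 15.2% shorter and 15.7% longer with lists of equal number (46 tested), so that the last count of shorter regions was near the background. Longer regions numbered 7 and 10 without E12.5 replicate 1 or 2, and 1 without any one E14.5 or enterocyte library. The call remained with each of the 8 libraries left out for 5 of the 19, and for 0 of the 3.

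All 19 were also shorter in enterocytes than at E14.5, 8 also than at E12.5 and 3 also than in ISC. Of the 19, 14 were called in neither enterocyte library and 7 were called only at E14.5. The 7 passed the filter only through the group where they are high, so their calls follow from the filter. Every region called in a single group was then left out, a choice made after the values were seen. Of the 54 window regions left, 12 were shorter (22.2%, against 10.7% of 15900) and 2 longer (3.7% against 11.1%). The median change was -0.19 over the 54 and -0.07 over the 15900. Where a group had 0 bp in its 2 libraries, these showed no spread, the adjusted p may be too small, and no log2 change is given. The 7 E14.5-only regions go below the filter when an E14.5 library is left out.

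The comparisons with single groups differed in direction. Against E14.5, 23 regions were shorter in enterocytes (18.2% of all) and 2 longer (8.9%). Against E12.5, 9 were shorter (9.12%) and 11 longer (14.7%), and against ISC, 4 were shorter (3.17%) and 1 longer (4.35%). The medians were -0.59, 0.00 and -0.09 over the 63, and -0.15, 0.00 and 0.00 over all regions. These comparisons share the enterocyte libraries. Without regions called in a single group, 15 were shorter than at E14.5 (27.8% of 54, against 12.1% of all) and 1 longer, while 4 were shorter than in ISC and 0 longer, the 1 longer region being called only in enterocytes. Without either E14.5 library, fewer were shorter than at E14.5 or in ISC, and the 8 regions called only at E14.5 go below the filter. With the replicate number as a block 1 was shorter than in ISC. The shares over all regions are not given beside the counts with a library left out. Without ISC replicate 2 or enterocyte replicate 1, 2 were shorter than in ISC, and without either enterocyte library 7 were longer than at E12.5. The regions longer than in ISC or at E14.5 numbered 0 without any one E14.5 or enterocyte library, and 1 was longer than at E14.5 without E12.5 replicate 2.

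A pair of comparisons among the cycling groups was added after the values were seen. At E14.5, 17 regions were longer than at E12.5 (15.2% of all) and 0 shorter (1.86%), of which the count at an unadjusted p under 0.05 in either direction was 25. Without scaling 32 were longer, with lists of equal number the count was 2 in each direction, and leaving out E14.5 replicate 1 or 2 left 1 and 3 longer. In ISC, 13 were shorter than at E14.5 (11.9%) and 0 longer (2.87%), with 18 at an unadjusted p under 0.05. Without either E14.5 library 0 were shorter, and without ISC replicate 2, 1 was longer. Both counts include the 8 regions called only at E14.5. Without regions called in a single group, 9 were longer at E14.5 than at E12.5 (16.7% of 54, against 8.86% of all) and 5 shorter in ISC than at E14.5 (9.26% against 5.18%).

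**Figure D4:**
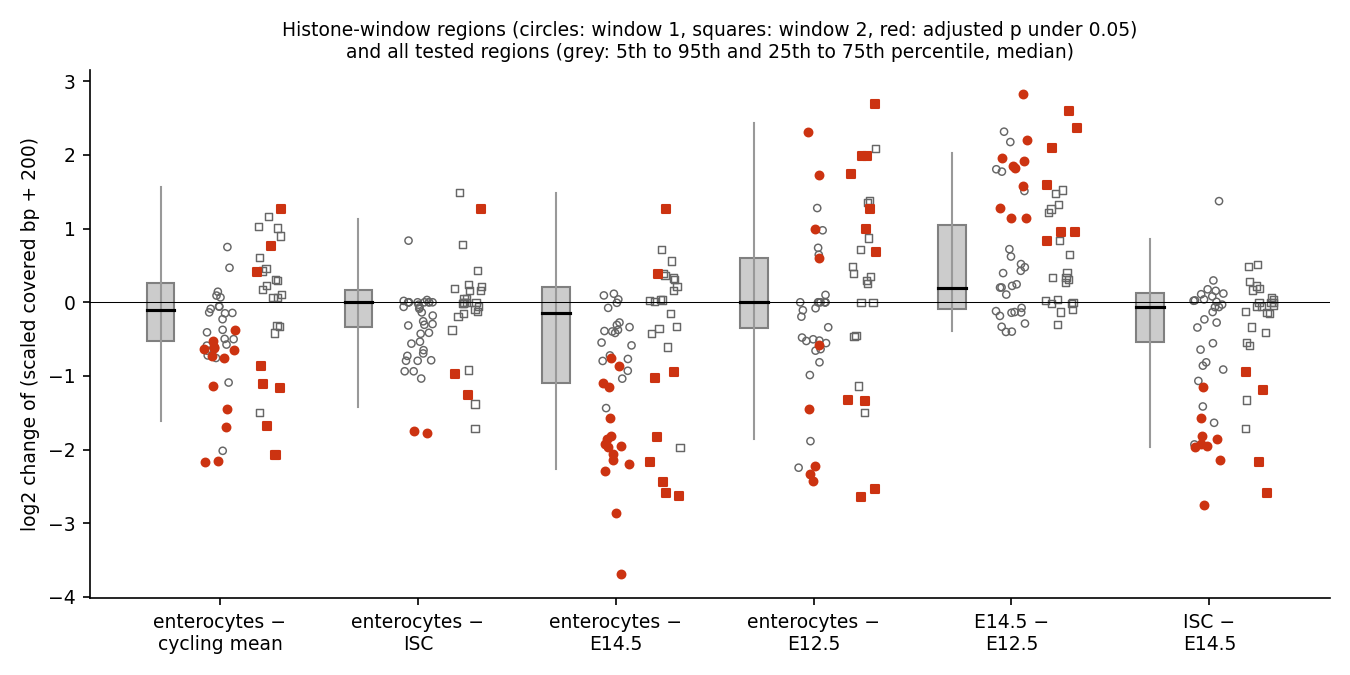
Log2 change of (scaled covered bp + 200) of the 63 tested histone-window regions (circles window 1, squares window 2, red for a limma adjusted p under 0.05) beside the percentiles of all 17679 regions (grey), for 6 comparisons; changes of regions with 0 bp in a whole group are plotted too and depend on the 200 bp added. Against the cycling mean the red points of window 1 are all below 0, while 3 red squares of window 2 lie above it.

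Complete absence from the enterocyte lists, with a peak in all 6 cycling libraries, was found for 2 regions, 1 per window (0.715% of all regions). At chr13:21947109-21948163 the peaks covered 688 and 675 bp for E12.5, 928 and 1055 bp for E14.5, 354 and 640 bp for ISC and 0 bp in both enterocyte libraries. The adjusted p by limma was 0.00167 against the cycling mean and 0.0132 against ISC. At chr13:23617565-23618804 they covered 660 and 836 bp, 1240 and 1005 bp, and 214 and 368 bp, again with 0 bp in enterocytes (adjusted p by limma 0.0017 against the cycling mean and 0.0365 against ISC). The calls against the cycling mean and E12.5 remained without each library, while those against ISC were lost without either E14.5 library or enterocyte replicate 1 (adjusted p up to 0.0543 and 0.108), and for the second also without ISC replicate 2 or enterocyte replicate 2. With lists of equal number the calls against ISC were lost for both (adjusted p = 0.419 and 0.417), and for the second also those against the cycling mean (0.105), E12.5 (0.261) and E14.5 (0.074). Both were picked for this pattern, so that these p-values in part restate the choice. In both, ISC had the shortest peaks among the cycling groups.

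The opposite pattern occurred once (1.52% of all regions). The short region chr13:23779624-23779969 was called only in enterocytes, with 333 and 229 bp. It passed the filter only through enterocytes, so no test is given for it. It lies 980 bp beyond chr13:23774629-23778643, which was called in all 8 libraries and covered 1877 and 1319 bp for E12.5, 3549 and 3411 bp for E14.5, 2795 and 3146 bp for ISC, and 3026 and 3918 bp for enterocytes. That longer region was at its widest in enterocyte replicate 2, and its change against the cycling mean was 0.42 ± 0.18 (limma adjusted p = 0.134). Without E12.5 replicate 1 or 2 the adjusted p was 0.00814 and 0.0329.

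The first region of window 2, chr13:23555624-23558004, was called in every library and was shorter in enterocytes than in each cycling group. It covered 1840 and 1757 bp for E12.5, 2357 and 2286 bp for E14.5, 1791 and 1829 bp for ISC, and 588 and 1064 bp for enterocytes. All 6 cycling libraries were above both enterocyte libraries, and the log2 change against the cycling mean was -1.11 ± 0.16 (limma adjusted p = 0.00549, and 0.00518 to 0.0329 with a library left out). Against ISC it was -0.98 (adjusted p = 0.044), a call that was lost without any one library other than enterocyte replicate 2 (up to 0.177). Its choice was made with its values in view, and with the pair of regions absent from enterocytes it makes up the 3 that were shorter in enterocytes than in each cycling group.

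At another pair of regions enterocytes were below E14.5 and ISC, while on the unscaled length E12.5 replicate 1 was close to or below enterocyte replicate 2. On the scaled length, which the test uses, both enterocyte libraries were below all 6 cycling libraries at both regions. At chr13:23625272-23629202 the covered length was 1108 and 2655 bp for E12.5, 3413 and 3788 bp for E14.5, 2641 and 2679 bp for ISC, and 365 and 1098 bp for enterocytes. The log2 change against the cycling mean was -1.68 ± 0.36 (limma adjusted p = 0.0202), and against ISC -1.71 ± 0.44 (adjusted p = 0.0916). The call was lost without either E14.5 library, ISC replicate 1 or enterocyte replicate 1 (up to 0.102). At chr13:21806896-21810663 it was 1763 and 2477 bp, 3588 and 3768 bp, 3025 and 3038 bp, and 1219 and 2150 bp in the same order. The change was -0.74 ± 0.16 (adjusted p = 0.0241), but with lists of equal number it was 0.59 (adjusted p = 0.0453), in the other direction. Leaving out the same 4 libraries ended this call too (up to 0.1), as did the lack of scaling (0.058).

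Of the 3 regions called in all 4 embryonic and no adult library, a pair was named. At chr13:21988753-21989660 peaks covered 544 and 594 bp for E12.5 and 908 and 823 bp for E14.5, with 0 bp in all 4 adult libraries. At chr13:23597558-23598628 they covered 225 and 248 bp for E12.5 and 761 and 1025 bp for E14.5, likewise with 0 bp in the adult libraries. The limma adjusted p of enterocytes against the cycling mean was 0.00234 and 0.00354, and both calls remained without each library. They are among the regions named for their small adjusted p. The third, chr13:22016784-22017597, was not named and covered 406 and 160 bp for E12.5 and 755 and 719 bp for E14.5. Its call against the cycling mean (limma adjusted p = 0.0279) was lost without any one E14.5, ISC or enterocyte library (up to 0.126). It was also lost with lists of equal number (0.184). A further region, chr13:22086227-22089296, was long at E14.5 alone. The E14.5 libraries had 3056 and 2971 bp, E12.5 had 483 and 358 bp, ISC had 0 and 592 bp, and enterocytes had 0 bp (adjusted p = 0.0268). This call was lost without E12.5 replicate 1 or any one E14.5 or enterocyte library (up to 0.118), and with lists of equal number (0.352). Against E12.5 the enterocyte change had an adjusted p of 0.0832.

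The named regions called only at E14.5 were short. In window 1 they covered 806 and 653 bp (start 21998914), 573 and 436 bp (22002697), 644 and 770 bp (22019858), 379 and 241 bp (22025919), 670 and 613 bp (22027479) and 835 and 517 bp (22028846). In window 2 the region starting at 23592755 covered 1384 and 1169 bp. In every other library they had 0 bp. They entered the comparisons only through E14.5, so no test is given for them. The eighth, at 23580381, covered 295 and 183 bp.

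Regions that were longer in enterocytes were longer mostly against E12.5, with 17.5% of the 63 and 14.7% of all tested regions. Over all regions fewer were longer against E14.5 (8.9%) and ISC (4.35%) too, so this order is not particular to the windows. The 3 called against the cycling mean were the enterocyte-only region, chr13:23646576-23648494 and chr13:23802036-23802807. The first of the latter pair covered 714 and 872 bp for E12.5, 1688 and 1618 bp for E14.5, 1594 and 1593 bp for ISC, and 1698 and 1798 bp for enterocytes. Its change was 0.41 ± 0.08 against the cycling mean (limma adjusted p = 0.0172) and 0.16 ± 0.10 against ISC (adjusted p = 0.49). The second had 0 bp for E12.5, 507 and 517 bp for E14.5, 590 and 746 bp for ISC, and 477 and 731 bp for enterocytes. E12.5 was the low group in both, and they were named after their values were seen. Both calls were lost without either E14.5 library, and without enterocyte replicate 1 or 2 respectively (adjusted p up to 0.0876 and 0.107).

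Next to the long block, chr13:23676715-23678798 covered 0 and 282 bp for E12.5, 1870 and 1897 bp for E14.5, 1833 and 1950 bp for ISC, and 1973 and 1849 bp for enterocytes. E12.5 was again the low group and the others overlapped. The log2 change against E12.5 was 2.70 ± 0.45 in enterocytes (limma adjusted p = 0.00975) and depends on the 200 bp added. Its neighbour chr13:23673344-23674816 had 0 and 313 bp, 862 and 699 bp, 556 and 635 bp, and 922 and 1396 bp in the same order. Enterocytes were the highest group there, with a change of 1.16 ± 0.41 against the cycling mean (adjusted p = 0.0915) and 1.99 ± 0.50 against E12.5 (adjusted p = 0.0407). The latter was lost without any one E14.5, ISC or enterocyte library (up to 0.132).

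The remaining pair of named regions was called in every library. At chr13:23608188-23611562 the covered length was 2774 and 1536 bp for E12.5, 3341 and 3303 bp for E14.5, 2546 and 2624 bp for ISC, and 2163 and 1646 bp for enterocytes, and it passed the test in none of the 4 comparisons with enterocytes. At chr13:22131913-22136200 it was 954 and 1038 bp, 4288 and 3507 bp, 2165 and 3221 bp, and 2029 and 2018 bp in the same order. Enterocytes were above E12.5 there by 0.60 ± 0.15 (limma adjusted p = 0.0442) and E14.5 was above E12.5 by 1.14 ± 0.15 (adjusted p = 0.00521). The first was lost without any one E12.5, E14.5 or enterocyte library (up to 0.14). The second was lost without either E14.5 library (up to 0.111), and with lists of equal number it turned to -2.76 (adjusted p = 0.262).

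Counting by order of the libraries instead of by test, both enterocyte libraries were below all 6 cycling libraries on the scaled length in 11 of the 68 regions (7.43% of all regions) and above them in 4 (10.0%). All 4 were in window 2, and 7 of the 11 in window 1. Both E14.5 libraries were above the other 6 in 15 (12.8%). Without scaling these counts were 7 below (4.64%), 3 above (6.62%) and, for E14.5, 42 (37.3%).

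Within each list, the peaks of the clusters were not among the strongest. Their median fold enrichment over input, the authors' own value for a peak, was 3.82 and 4.02 for E12.5, 5.44 and 6.77 for E14.5, 4.40 and 5.11 for ISC, and 4.52 and 5.74 for enterocytes. The medians of the full lists were higher in every library, from 4.54 to 9.66. By fold, the median cluster peak stood at the 26.4 to 37.8 percentile of its list in the cycling libraries and at 36.9 and 44.3 for enterocytes. By length it stood at 36.6 and 34.7 for E12.5, 59.3 and 48.2 for E14.5, 51.2 and 60.6 for ISC, and 30.4 and 47.0 for enterocytes. Cluster peaks whose −log10 q reached 10 numbered 0 and 4 for E12.5, 42 and 39 for E14.5, 3 and 27 for ISC, and 5 and 29 for enterocytes, and the shallower library of ISC and of enterocytes had the fewer.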

How the data were processed

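Per the labels, H3K4me3 chromatin immunoprecipitation libraries of 4 groups (n = 2 each) were sequenced, and group and replicate came from the sample titles. The deposited values are 8 peak lists, 1 for each library. Per the file headers, MACS 2.0.10.20130712 called broad peaks with a q-value cutoff of 0.01 against 1 input shared by the libraries of a group. The weakest peak of a library had a −log10 q from 1.01 (ISC replicate 1) to 1.09 (enterocytes replicate 1). Every library thus includes peaks with a q above 0.01, and a called region need not meet that cutoff. Which cutoff applied to the broad peaks is not known here. Bowtie 1.1.2, SAMtools 1.2 and the build mm9 are named in the submitters' processing notes. The authors give for each peak its length in bp, a pileup signal (fragment coverage), −log10 p and q-values and a fold enrichment (a ratio over input). The fold enrichment and −log10 q served only within their own list, and the pileup signal was not used.

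The lists hold no read counts per region, so the precision of a single value is unknown, and depth is given as tags per library from the headers. Covered bp per merged region was divided by a factor per library that equalizes medians over the regions called in all 8 lists. Printed bp are unscaled unless named as scaled. limma 3.58.1 in R 4.3.3, with a trended prior, fitted the 4 groups together on log2(scaled bp + 200) (residual degrees of freedom 4, prior 1.52). Tests were two-sided at an adjusted p of 0.05, and the scale understates changes of short regions. The fit was tested on data simulated from regions called in all 8 libraries, so regions with no covered bp in a group were not part of that check.

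The 21 named regions are the 6 longest by mean, the 3 with the largest change per direction against the cycling mean, the 12 with the smallest adjusted p, and those split cleanly between cycling and enterocyte libraries. Regions, lists and comparisons were chosen with earlier results of these data known. Promoter sequences and names came from RefSeq GRCm38.p6, where 51 of the 56 genes had a promoter entry. Its coordinates were not used.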

Additional observations from a re-analysis of the deposited data

How the results depend on the processing

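For covered bp in both windows (enterocytes minus the cycling mean, -17031), lists of equal number gave -2943. The number of peaks (-6.5) became 2.17. For peaks of at least 5000 bp (-0.333) the values were -0.167 at a −log10 q of at least 10, 0 with lists of equal number, -0.833 with peaks joined, -2 for at least 3000 bp and 0 for at least 10000 bp. Window 1 gave -9139 with lists of equal number. Window 2 gave 6197 with them and 1708 at a −log10 q of at least 10.

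Counts of shorter and longer regions in enterocytes against the cycling mean (19 and 3) were 8 and 9 with lists of equal number and 10 and 0 at a −log10 q of at least 10. Calls in at least 4 libraries left 12 shorter, and a pseudocount of 1000 bp gave 5 longer. Leaving out each library gave 5 to 19 shorter and 1 to 10 longer. Against E14.5 (23 and 2) they were 9 and 8, 10 and 0, and 12 and 0 with at least 4 libraries, with 1 longer without scaling or with at least 1 library, and 4 to 23 and 0 to 2 with a library left out. Against E12.5 (9 and 11), 5 were longer with lists of equal number, 0 and 0 passed at a −log10 q of at least 10, 14 were shorter after quantile normalization, and leaving out a library gave 7 to 13 longer. Against ISC (4 and 1), 0 and 0 passed at a −log10 q of at least 10, 2 were shorter with 50 bp, 2 were longer with lists of equal number, none was longer after quantile normalization or with at least 4 libraries, and leaving out a library gave 0 to 6 shorter and 0 to 1 longer.

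For E14.5 against E12.5 (0 and 17), the longer regions were 32 without scaling, 7 after quantile normalization, 8 with at least 4 libraries, 10 at a −log10 q of at least 10 and 2 with lists of equal number, which gave 2 shorter. Leaving out a library gave 1 to 20 longer and 0 to 1 shorter. For ISC against E14.5 (13 and 0), the shorter were 5, 4 and 4 with quantile normalization, at least 4 libraries and lists of equal number. The longer were 4 with lists of equal number and 1 with 1000 bp, and leaving out a library gave 0 to 15 and 0 to 1. Except as given here, the cause was not tested. The number of regions tested and the share over all regions can change with the setting, as given above against the cycling mean. The counts of this paragraph and the one before are printed without them. By themselves they do not show a difference from the background.

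The replicate number shared no stated batch, and the deviations of same-numbered libraries correlated by 0.02 to 0.31. With the replicate block, 1 region was shorter in enterocytes than in ISC in place of 4. Of the named regions, 2 changed direction against the cycling mean. The region starting at 21806896 went to 0.44 at a −log10 q of at least 10 (limma adjusted p = 0.876) and 0.59 with lists of equal number (0.0453). That at 22025919 went to 0.0295 after quantile normalization. The region at 22025919 passed the filter only through E14.5, so no test is given for it. At a −log10 q of at least 10, E12.5 had 0 and 4 peaks in the windows, which sets the value of every comparison with it.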
